A study of Rattus norvegicus with 300 samples.

Results

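The signalling genes of striatal projection neurons described here are the 8 genes Adora2a, Gng7, Adcy5, Ppp1r1b, Pde10a, Rgs9, Rxrg and Syndig1l, taken by name from the 17337 gene symbols of the count table. All 8 were present in the table and passed the filter on low counts in every fit. The table holds 300 RNA libraries from tissue punched out of frozen rat brain, with 5 for each pairing of 10 regions and 6 treatments. The rats were 60-day-old male Long Evans animals that drank their treatment in water for 3 weeks. The daily dose was 13 mg/kg for the group named FT, 15 mg/kg for Bupropion and 7.5 mg/kg for Desipramine. Other rats drank Probiotics, Maltodextrin at 10 g/L, or plain water (Control). FT is not spelled out in the sample names, and fluoxetine is the protocol's drug that no other group name takes. The probiotic dose is stated in forms that disagree and is not printed. Each antidepressant was compared with Control, Probiotics with its carrier sugar Maltodextrin, and Maltodextrin with Control. The regions are named as labelled: NACShell, BLA, mPOA, CGC, PLC, ILC, dorDG, venDG, LConly and Raphe. NACShell is the region whose name matches the shell of the nucleus accumbens, a part of the ventral striatum. Tissue punches were pooled per region before extraction, and the sources used here do not give the number of rats in a pool, so a p-value here reflects the spread of libraries, which may be technical.

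Projection neurons make up most of the striatum, and they turn dopamine and adenosine signals into changes of cyclic AMP. An adenosine receptor (Adora2a) and the D1 dopamine receptor couple to a stimulatory G protein whose gamma subunit is Gng7, and this activates the adenylyl cyclase Adcy5. Cyclic AMP activates protein kinase A, which turns DARPP-32 (Ppp1r1b) into an inhibitor of protein phosphatase 1, while the phosphodiesterase Pde10a degrades cyclic AMP and cyclic GMP. Rgs9 speeds up the shutdown of inhibitory G proteins behind the D2 receptor. Rxrg is a retinoid X receptor, a nuclear receptor and transcription factor, and Syndig1l is a membrane protein of the SynDIG family that is enriched in striatum. Antidepressants of the kinds tested act on the uptake of serotonin, noradrenaline or dopamine, and the accumbens is a main target of dopamine fibres.

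Library totals lay between 198260 and 18310687 counts (median 9232563). Under 1000000 counts were found in 4 Desipramine libraries, namely BLA replicate 3, NACShell replicate 1, dorDG replicate 1 and CGC replicate 1. Several groups did not match the markers of their region label. Libraries labelled BLA carried striatal markers at the level of NACShell in all 6 treatments, with 238 CPM of Drd1 in Control NACShell and 228 CPM in Control BLA (CPM are counts scaled to a library total of 1000000). FT libraries labelled ILC held 255 CPM of Dbh, a noradrenaline enzyme, and those labelled LConly held 0.651 CPM of it and 18.1 CPM of the cortical gene Tbr1. Control libraries labelled ILC held 23.4 CPM of Slc17a7, a marker of cortical excitatory neurons, beside 274 to 370 CPM in the 4 other groups that carried it, and Probiotics libraries labelled dorDG held 28.6 CPM beside 326 to 490 CPM. Control BLA and Control venDG held 536 and 567 CPM of Cd74, an immune gene. BLA, dorDG, ILC, LConly and venDG are therefore given apart from CGC, mPOA, PLC and Raphe. Samples were kept under their labels.

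Promoters of 5 of the 8 genes were found in RefSeq (assembly GRCr8), each covering 250 bases before to 50 bases after a start site. They are shown because each of these genes was higher in NACShell than in the 8 regions other than BLA, so that the regional levels may be set beside the sequence. Capitals mark GC boxes (GGGCGG or CCGCCC) and half-sites of the cyclic AMP response element (TGACG or CGTCA). The first sequence is 1 of the 2 Pde10a promoters listed, chr1:54765619-54765918, minus strand. Those of Adcy5 (chr11:79123294-79123593, minus strand), Rgs9 (chr10:94770338-94770637, minus strand) and Gng7 (chr7:9365139-9365438, plus strand) follow.
Pde10a: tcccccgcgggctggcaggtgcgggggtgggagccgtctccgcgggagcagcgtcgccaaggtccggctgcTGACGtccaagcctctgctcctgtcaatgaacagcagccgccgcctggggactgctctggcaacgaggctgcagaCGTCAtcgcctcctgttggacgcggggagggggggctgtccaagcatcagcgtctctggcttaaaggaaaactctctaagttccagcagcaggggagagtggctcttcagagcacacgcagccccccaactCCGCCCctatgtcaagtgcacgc
Adcy5: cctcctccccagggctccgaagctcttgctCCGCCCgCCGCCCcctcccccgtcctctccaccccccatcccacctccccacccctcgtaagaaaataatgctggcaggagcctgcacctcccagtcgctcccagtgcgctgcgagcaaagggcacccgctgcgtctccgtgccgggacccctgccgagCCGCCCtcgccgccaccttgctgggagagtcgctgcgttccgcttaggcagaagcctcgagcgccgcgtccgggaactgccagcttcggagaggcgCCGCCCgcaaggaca
Rgs9: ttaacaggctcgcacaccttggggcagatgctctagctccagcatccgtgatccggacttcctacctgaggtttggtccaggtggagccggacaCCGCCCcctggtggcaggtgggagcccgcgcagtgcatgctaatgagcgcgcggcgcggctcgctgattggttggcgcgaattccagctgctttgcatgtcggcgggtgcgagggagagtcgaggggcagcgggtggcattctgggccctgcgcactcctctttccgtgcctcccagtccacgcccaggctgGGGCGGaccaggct
Gng7: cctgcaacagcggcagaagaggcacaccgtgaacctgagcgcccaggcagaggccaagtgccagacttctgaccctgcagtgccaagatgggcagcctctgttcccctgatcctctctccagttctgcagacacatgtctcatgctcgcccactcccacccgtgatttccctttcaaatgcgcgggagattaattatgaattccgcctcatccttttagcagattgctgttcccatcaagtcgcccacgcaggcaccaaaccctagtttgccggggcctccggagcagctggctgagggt
The half-site was present in Pde10a, at positions -179 and -104 from the start site, and in no other promoter of the group, against 21.2% of all 33469 promoters. GC boxes stood in Pde10a, Adcy5 and Rgs9, against 33.1% of all promoters. Adcy5 held 4 of them, at -220, -213, -61 and 36. Gng7 and Rxrg, whose promoter lies at chr13:82276237-82276536 on the plus strand, held neither motif. The nuclear receptor half-site AGGTCA (16.2% of all promoters) and the TATA box TATAAA (14.2%) were found in none of the 6, with both strands searched. GC content was 65.7% in the Pde10a promoter shown, 70.7% in Adcy5, 66.3% in Rgs9, 60.7% in Rxrg and 58.0% in Gng7, against a median of 51.7% over all promoters. A match is a description of these letters and not a binding site.

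In Control rats the 8 genes were striatal by level: each was higher in NACShell than in the 8 regions other than BLA. Of 72 tests of NACShell against another region, 66 were higher in NACShell at an adjusted p under 0.05 in edgeR, where 31.6% of all gene tests were. Outside BLA all 64 tests were higher. By region the share of all genes higher in NACShell was 30.8% against BLA, 30.1% against CGC, 27.1% against dorDG, 38.3% against ILC, 35.7% against LConly, 32.4% against mPOA, 27.6% against PLC, 33.3% against Raphe and 29.4% against venDG. These levels follow what the genes were chosen for, and are given to show how much each fell off from region to region. Less RNA of a gene in such bulk tissue can mean fewer cells or less RNA per cell, which cannot be told apart here.

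Adora2a, the adenosine receptor gene, had 125, 137, 131, 136 and 126 CPM in the 5 Control NACShell libraries, and its group mean was 10.8 ± 1.02 CPM in mPOA (SD, n = 5) and 4.28 ± 0.803 CPM in CGC. From CGC down to ILC, at 1.69 ± 0.742 CPM, neighbours in the order overlapped. Rgs9 had the same order at its top, with 159 to 176 CPM in NACShell, 41.7 ± 3.98 CPM in mPOA and 2.87 to 7.76 CPM as means of the 7 other regions outside BLA. In both genes mPOA stood clear of the regions under it. Syndig1l had 35.3 to 39.1 CPM in NACShell, 10.4 ± 1.01 CPM in mPOA, 4.43 ± 1.45 CPM in LConly and 1.78 CPM or less in the 6 other regions outside BLA, where neighbours overlapped.

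Ppp1r1b had 631, 622, 599, 633 and 635 CPM in Control NACShell, and the next region outside BLA was PLC at 45.6 ± 3.58 CPM. The lowest regions were ILC, LConly and Raphe, at 13.6, 13.4 and 12.4 CPM, and their libraries overlapped. Pde10a was at 314 ± 8.31 CPM in NACShell and 52.6 ± 1.41 CPM in dorDG, a log2 change of 2.71 ± 0.061 (SE, edgeR adjusted p = 4.45e-43). Gng7 was at 372 ± 19.0 CPM in NACShell, next highest outside BLA in dorDG at 88.2 ± 3.70 CPM, and lowest in LConly at 7.69 ± 0.518 CPM. Adcy5, at 212 ± 4.84 CPM in NACShell, ranged over the 8 regions outside BLA between 22.7 CPM in ILC and 52.2 CPM in CGC. Rxrg stood near its next region. Its level was 41.4 ± 2.19 CPM in NACShell, 27.8 ± 1.74 CPM in mPOA and 18.9 ± 1.26 CPM in venDG, and the log2 change of NACShell over mPOA was 0.62 ± 0.075 (edgeR adjusted p = 1.27e-10). The same gene was at 1.95 ± 0.339 CPM in dorDG, its lowest region.

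**Figure D1:**
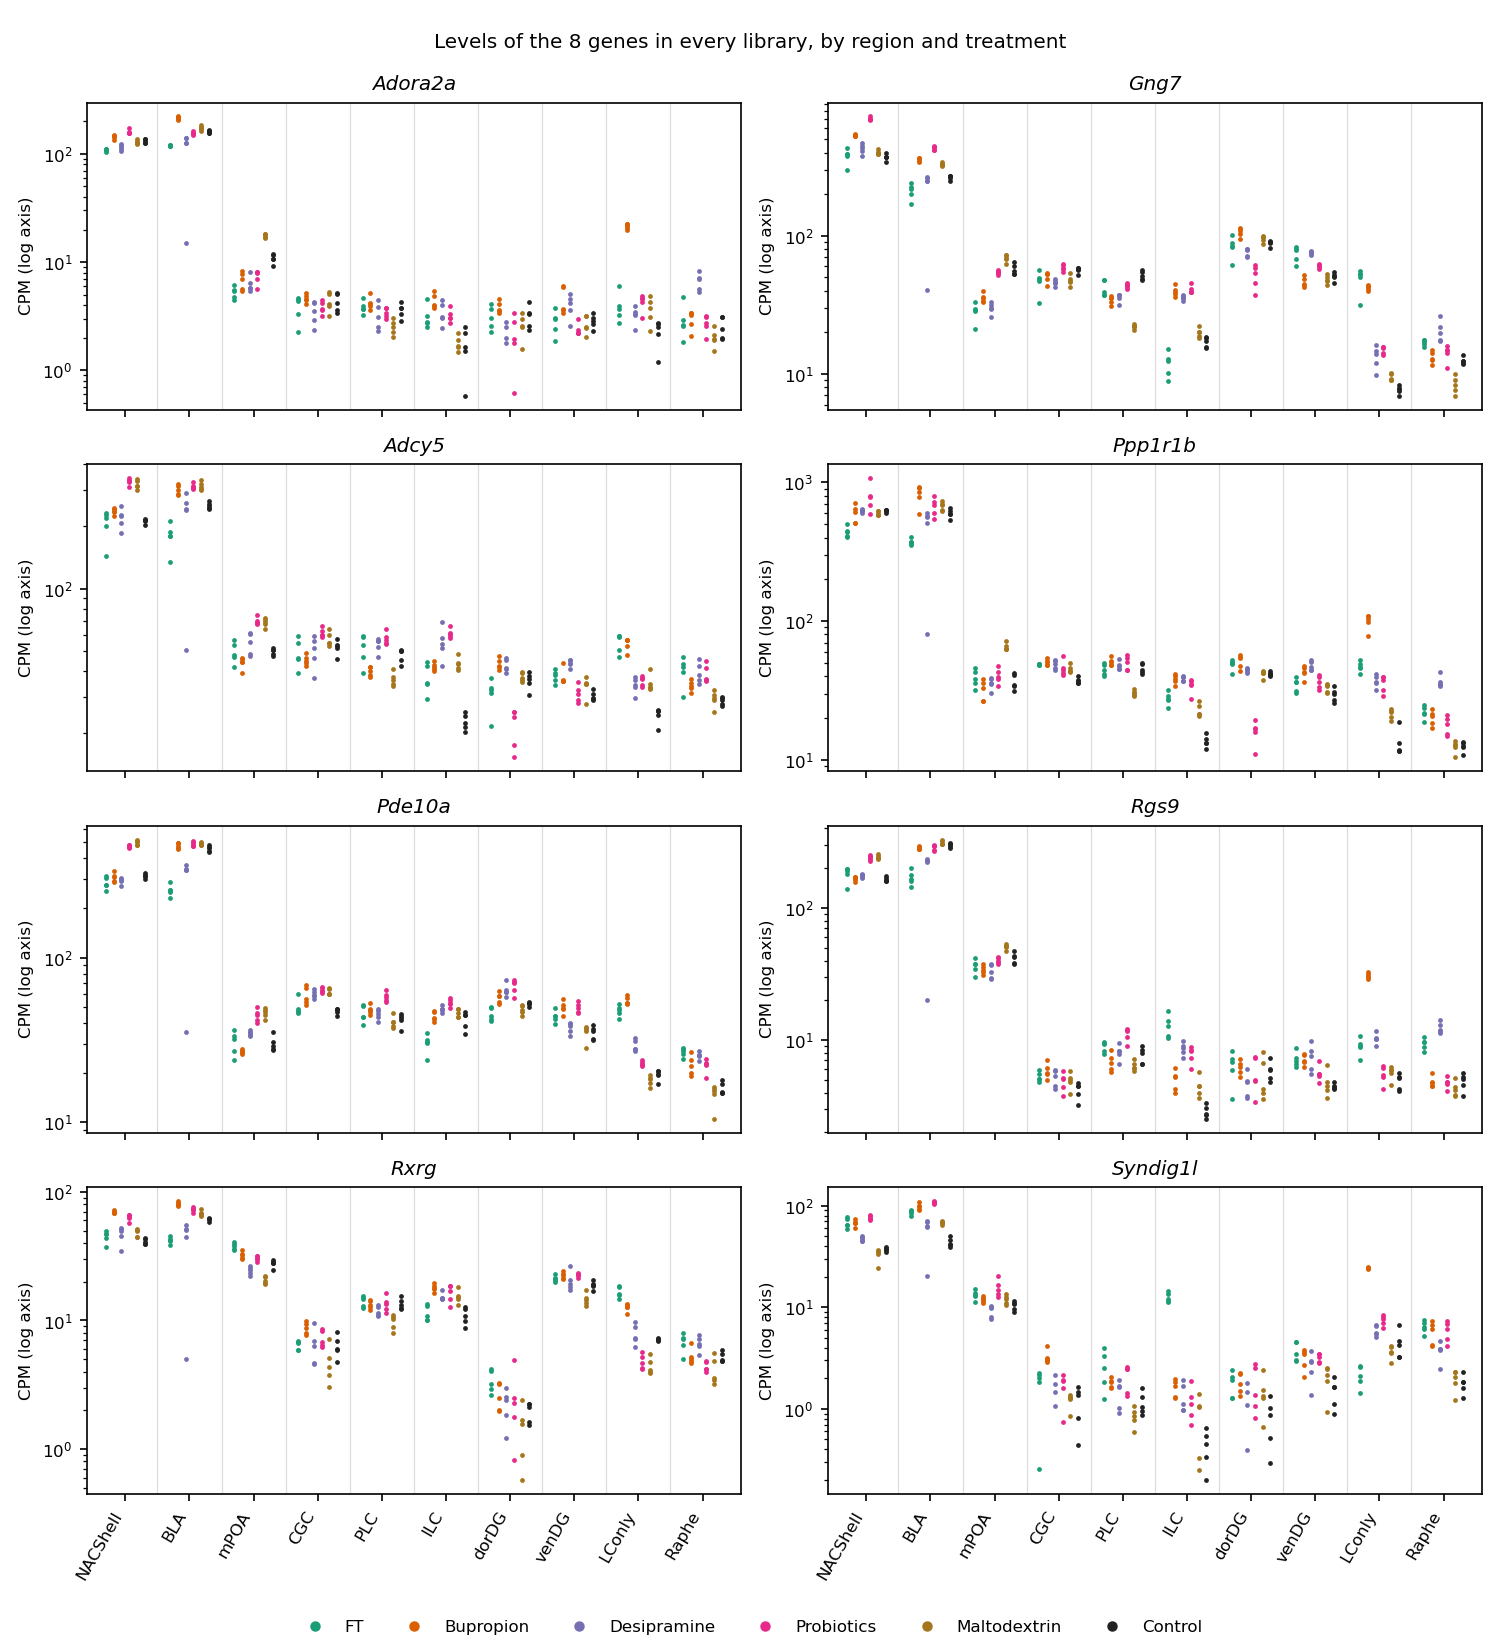
CPM of each gene (log axis) in all 300 libraries, 1 dot per library, by region and coloured by treatment; 3 library values of 0 CPM are not drawn. NACShell and BLA stand above the other regions for 6 of the 8 genes apart from 1 Desipramine BLA library that stands low in each panel; mPOA libraries reach NACShell level for Rxrg (up to 40.9 CPM with FT) and LConly libraries for Syndig1l (up to 24.7 CPM with Bupropion).

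The libraries labelled BLA held these genes at striatal level. Rgs9 had 159, 170, 160, 176 and 164 CPM in Control NACShell, against 289, 299, 284, 306 and 312 CPM in Control BLA, with no overlap. In NACShell it was therefore lower, by 0.60 ± 0.052 on the log2 scale (edgeR adjusted p = 4.74e-15), and Rxrg (-0.32 ± 0.072) and Pde10a (-0.30 ± 0.053) were lower too. Higher in NACShell than in BLA were Gng7 (0.73 ± 0.049) and Ppp1r1b (0.30 ± 0.061), 2 of the 8 genes, where 30.8% of all genes were higher. Adora2a, Adcy5 and Syndig1l were at -0.05, -0.01 and 0.01 and were not called. In CPM all of them were lower in NACShell without overlap, at 131 against 160, 212 against 252 and 37.2 against 43.8 CPM. Their near equality therefore rests on the scaling of the fit. For Ppp1r1b the order rests on that scaling as well, since the CPM of the 2 regions overlapped (599 to 635 CPM in NACShell and 540 to 652 CPM in BLA). Over the 6 treatments, group means in BLA lay between 49.9% and 206% of NACShell. The 10 striatal markers summed to 100% to 167% of NACShell in BLA, and were all in the table. Gpr6, a receptor of D2-type projection neurons, stood at 69.0 CPM in Control NACShell and 64.7 CPM in Control BLA.

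Elsewhere the genes were present at low level, and the question of tissue from a neighbouring striatal punch can be put to them only through striatal markers. In CGC, PLC, Raphe, dorDG and venDG, the median of the 8 genes was 2.5 to 11.7% of NACShell in the same treatment, and the 10 striatal markers summed to 2.40 to 13.3%. In mPOA the median was 13.0 to 19.4%, and the markers summed to 12.4 to 18.8%. In ILC the median was 3.38 to 8.88% and the markers summed to 6.66 to 25.0%, highest in the libraries labelled FT. In LConly these were 3.58 to 18.0% and 9.08 to 23.8%. Medians and sums did not always go together, as in Control LConly with a median of 4.58% and a sum of 18.3%. Rxrg led the list in mPOA in all 6 treatments, at 42.7 to 84.6% of NACShell, and in venDG at 30.3 to 47.2%. Drd1 in Control was 238 CPM in NACShell, 23.2 CPM in mPOA, 11.4 CPM in PLC and 13.8 CPM in dorDG. Whether the low levels come from spread of a punch was not tested.

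**Figure D2:**
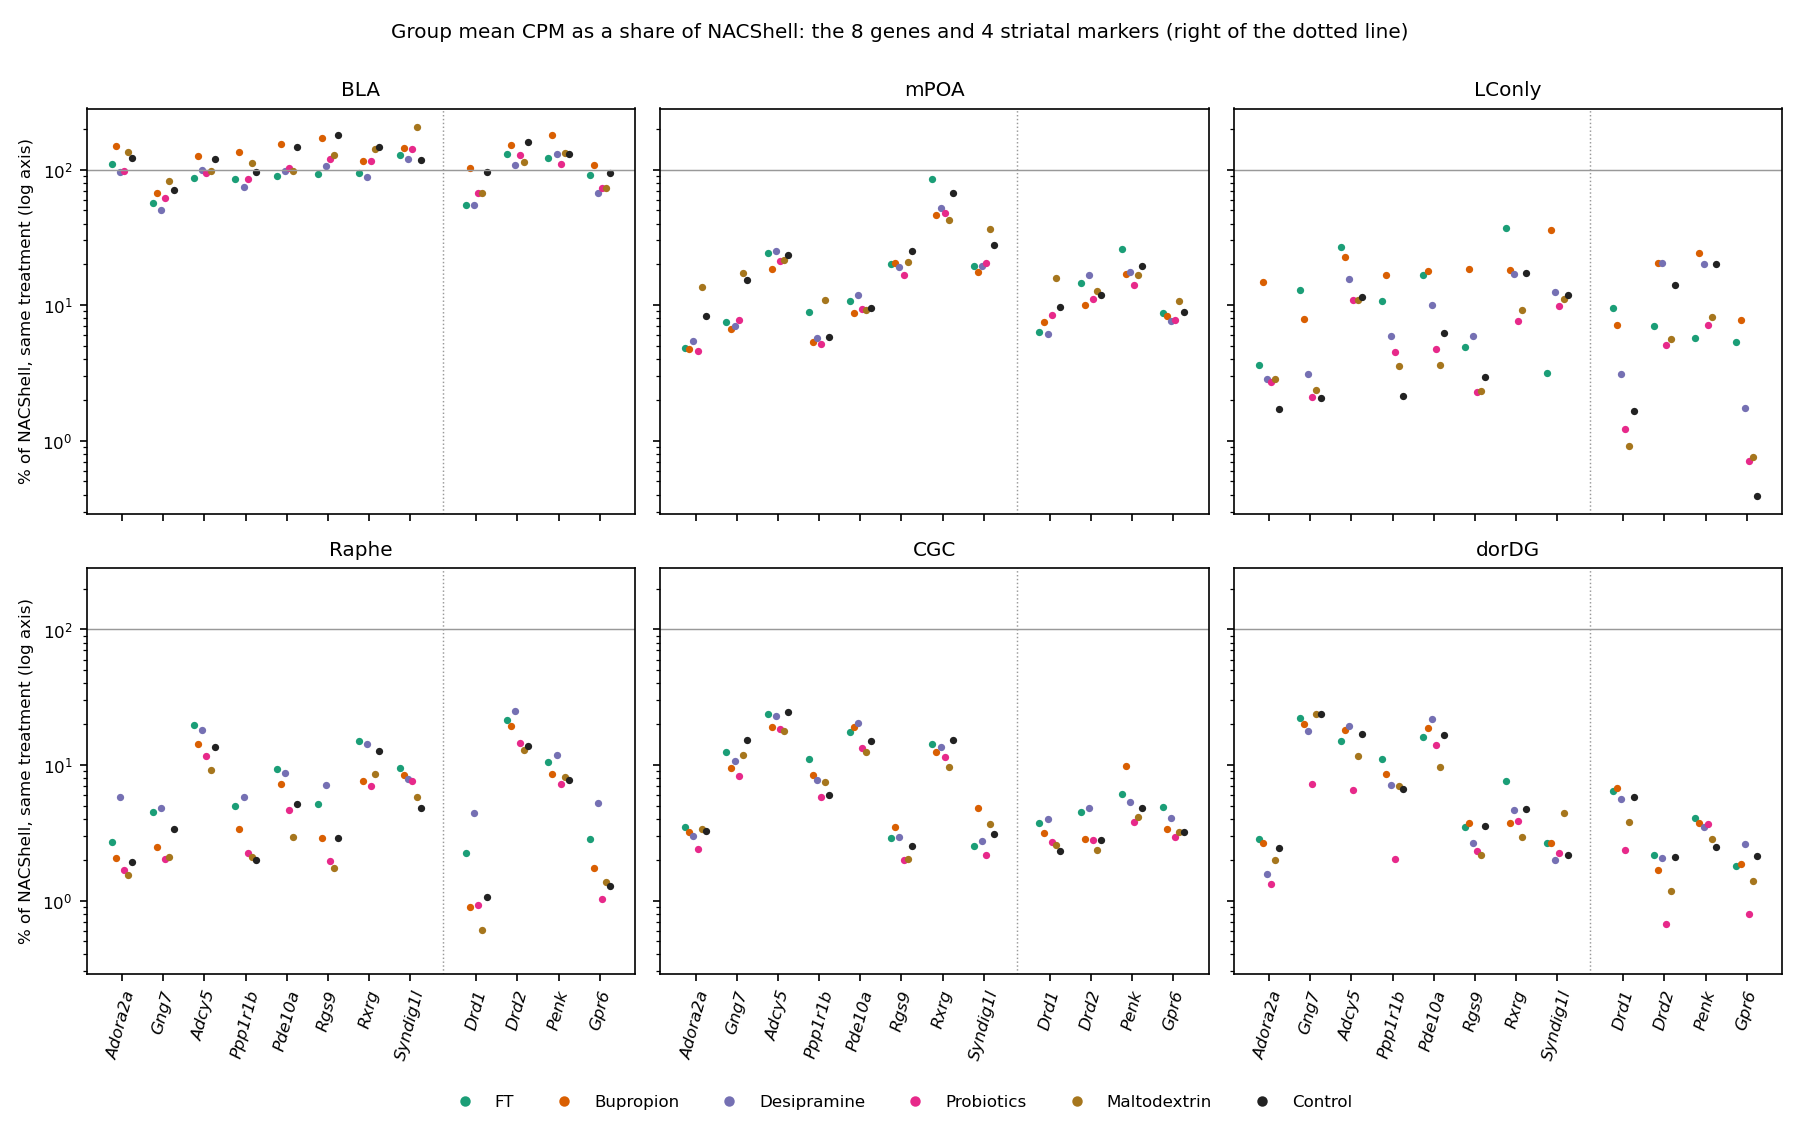
Group mean CPM as a percentage of NACShell of the same treatment (log axis) in 6 regions, for the 8 genes and, right of the dotted line, the striatal markers Drd1, Drd2, Penk and Gpr6; each dot is 1 treatment. BLA lies around 100%, and Bupropion in LConly and Desipramine in Raphe stand above the other treatments for Adora2a and Rgs9.

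In NACShell, FT libraries had more Syndig1l and less Ppp1r1b, Adora2a and Pde10a than Control libraries. That is 4 of the 8 genes called, where 46.7% of all 12116 genes tested were. The median of the 8 log2 changes was -0.14, against 0.04 over all genes. Of 28 tested genes in a list of 30 other striatal genes, 4 rose and 18 fell: Arpp21, a protein kinase A substrate, fell by 0.92 ± 0.070 and the retinoic acid receptor Rarb by 0.86 ± 0.074, while the transcription factors Six3 (1.36 ± 0.25) and Isl1 (0.84 ± 0.12) rose. Of 35 tested genes in a list of 36 cyclic AMP pathway genes, which shares 7 genes with the first list, 4 rose and 25 fell, with Gnas, the stimulatory G protein alpha subunit, at 0.39 ± 0.051 and the retinoid X receptor Rxrb at 0.40 ± 0.11 among those that rose. The same libraries differed in other markers. The 10 striatal markers summed to 2354 to 2994 CPM in FT and 3004 to 3088 CPM in Control, 5 oligodendrocyte markers to 22151 to 32206 CPM in FT and 20425 to 21903 CPM in Control, and 5 preoptic and hypothalamic markers to 112 to 308 CPM in FT and 3.93 to 7.83 CPM in Control, with none of the 10, 5 and 5 at 0 except Hmx2 in Control. Excitatory neuron markers (5 of 6 listed were in the table) summed to 165 to 205 CPM in FT and 292 to 312 CPM in Control. Markers of cholinergic neurons summed to 92.7 to 134 CPM in FT and 48.4 to 57.1 CPM in Control, those of dentate granule cells to 135 to 170 CPM in FT and 226 to 238 CPM in Control, and those of intercalated and extended amygdala cells to 168 to 235 CPM in FT and 119 to 132 CPM in Control. That makes 7 of 12 marker lists whose sums did not overlap. The part of these in the changes was not tested.

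Bupropion NACShell libraries had more Syndig1l, Rxrg and Gng7 than Control, and slightly less Pde10a. These were 4 of 8 genes, where 48% of all genes were called, and the median change was 0.07 against -0.01 over all genes. Among the other striatal genes 11 rose and 10 fell, with Six3 (1.38 ± 0.24) and the membrane protein gene Tmem158 (1.15 ± 0.23) highest and the receptor gene Gpr52 (-0.60 ± 0.080) and Arpp21 (-0.59 ± 0.070) lowest. Of the cyclic AMP pathway genes 5 rose and 18 fell, with the protein kinase A catalytic subunit Prkacb at -0.64 ± 0.057, the regulatory subunit Prkar1b at 0.39 ± 0.059 and the retinoic acid receptor Rara at 0.85 ± 0.17. Striatal markers summed to 2729 to 2931 CPM in Bupropion and 3004 to 3088 CPM in Control, and 5 of 6 listed markers of excitatory neurons that were in the table to 341 to 379 CPM in Bupropion and 292 to 312 CPM in Control, with none at 0. In all, 9 of 12 marker lists did not overlap, 6 higher and 3 lower in Bupropion. Among the others were cholinergic markers at 64.5 to 69.7 CPM in Bupropion and 48.4 to 57.1 CPM in Control, and microglia markers at 222 to 254 CPM in Bupropion and 188 to 214 CPM in Control. Their part in the changes was not tested.

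Desipramine NACShell libraries had less Adora2a and Pde10a than Control. No gene of the 8 rose in the main edgeR fit, by DESeq2 or at an unadjusted p under 0.05 in that edgeR fit (0 in each). When the fit was scaled by library totals, however, Rxrg (0.24), Gng7 (0.22) and Syndig1l (0.35) were called higher. Syndig1l was also called higher with only the groups compared in the fit (0.16). Called in the main fit were 2 of 8, where 41.3% of all genes were, and the median change was -0.11 against 0.01 over all genes. Other striatal genes split into 5 that rose and 7 that fell. Six3 was again highest (1.23 ± 0.26), and Rasgrp2, an activator of Rap proteins, fell by 0.51 ± 0.11. The orphan receptor gene Gpr149 was at 0.58 ± 0.11 and Tac1, the substance P precursor, at -0.34 ± 0.078. In the cyclic AMP pathway 3 rose and 17 fell, with the protein kinase A regulatory subunit Prkar1a at -0.60 ± 0.058 and the catalytic subunit Prkaca at 0.34 ± 0.063. Rxra, a retinoid X receptor, was at -0.62 ± 0.23 and the regulatory subunit Prkar2b at 0.17 ± 0.065. Oligodendrocyte markers summed to 14901 to 17448 CPM in Desipramine and 20425 to 21903 CPM in Control, none at 0. Cholinergic markers summed to 89.1 to 101 CPM in Desipramine and 48.4 to 57.1 CPM in Control, microglia markers to 118 to 173 CPM in Desipramine and 188 to 214 CPM in Control, and amygdala cell markers to 173 to 195 CPM in Desipramine and 119 to 132 CPM in Control. With the granule cell markers, at 202 to 224 CPM in Desipramine and 226 to 238 CPM in Control, 5 of 12 lists did not overlap, and their part was not tested. Striatal markers overlapped, at 2929 to 3138 CPM in Desipramine and 3004 to 3088 CPM in Control.

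Probiotics NACShell libraries had more Syndig1l, Gng7, Ppp1r1b, Rxrg and Adora2a than Maltodextrin libraries. All 5 calls were higher, and 38.2% of all genes were called, 20.4% higher and 17.9% lower. The median of the 8 genes was 0.37, against 0.00 over all genes. Among the other striatal genes 5 rose and 9 fell, with Tmem158 at 2.04 ± 0.37, Six3 at 1.81 ± 0.26, Arpp21 at -0.70 ± 0.070 and Rarb at -0.59 ± 0.070. Of the cyclic AMP pathway genes 9 rose and 6 fell, led by Rxra at 1.10 ± 0.23 and Rara at 0.80 ± 0.21. Oligodendrocyte markers summed to 18712 to 25131 CPM in Probiotics and 14783 to 16288 CPM in Maltodextrin, and 4 choroid plexus markers to 66.0 to 82.2 CPM in Probiotics and 33.3 to 63.8 CPM in Maltodextrin, none at 0. In all, 7 of 12 lists did not overlap, 5 higher and 2 lower in Probiotics, the lower ones being granule cell markers (190 to 206 CPM in Probiotics, 245 to 262 CPM in Maltodextrin) and vessel markers (98.3 to 109 CPM in Probiotics, 111 to 128 CPM in Maltodextrin). Striatal markers overlapped, at 3278 to 3927 CPM in Probiotics and 3632 to 3894 CPM in Maltodextrin, and the part of the other markers was not tested.

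Maltodextrin NACShell libraries had more Pde10a, Adcy5 and Rgs9 than Control and less Syndig1l and Adora2a. Called were 5 of 8, where 46.4% of all genes were, and the median change was -0.02 against -0.01 over all genes. Other striatal genes mostly rose, 18 against 2 that fell, with Ido1, a tryptophan-degrading enzyme, at 1.16 ± 0.38, Gpr149 at 0.79 ± 0.11 and a median of 0.24. Tmem158 was at -1.74 ± 0.38 and the phosphodiesterase Pde1b at -0.21 ± 0.074. In the cyclic AMP pathway 11 rose and 16 fell, with Arpp21 at 0.57 ± 0.070, Rarb at 0.41 ± 0.068, the adenylyl cyclase Adcy8 at -0.60 ± 0.13 and Rxra at -0.81 ± 0.24. Striatal markers summed to 3632 to 3894 CPM in Maltodextrin and 3004 to 3088 CPM in Control, excitatory neuron markers to 167 to 191 CPM in Maltodextrin and 292 to 312 CPM in Control, and oligodendrocyte markers to 14783 to 16288 CPM in Maltodextrin and 20425 to 21903 CPM in Control, with none at 0. In all, 9 of 12 lists did not overlap, 6 higher and 3 lower in Maltodextrin. Amygdala cell markers were among them, at 204 to 225 CPM in Maltodextrin and 119 to 132 CPM in Control. The part of these markers was not tested. The comparisons share control libraries, so their values are set side by side and no overlap between them is counted.

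**Figure D3:**
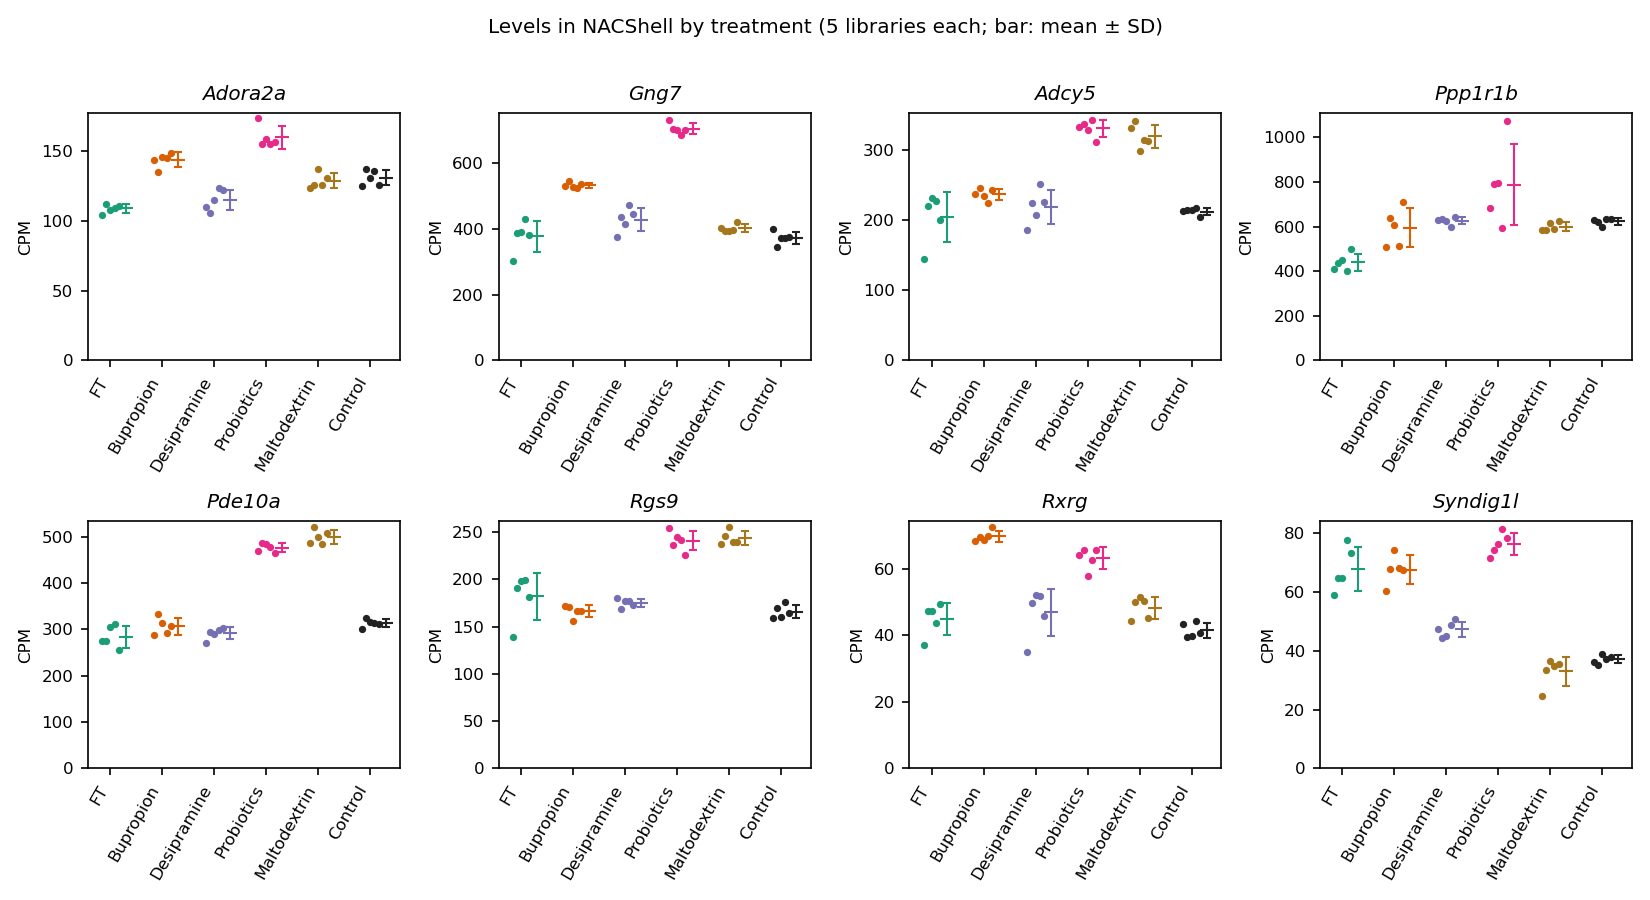
CPM of each gene in the 30 NACShell libraries by treatment, with dots for libraries and bars for mean ± SD (n = 5). Probiotics and Maltodextrin stand above the other groups for Pde10a, Adcy5 and Rgs9, and FT, Bupropion and Probiotics for Syndig1l.

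Fold changes come from fits scaled by TMM, which sets most genes at no change, while CPM rest on library totals. With library totals in the fit, the median of all genes in NACShell stood at 0.16 for FT, 0.07 for Bupropion, 0.19 for Desipramine and 0.17 for Maltodextrin against Control, and at -0.02 for Probiotics against Maltodextrin. Changes below come from the TMM fits unless library totals are named. No called change of the 8 genes in NACShell turned its sign with library totals, but the split of calls moved: it was 4 higher and 0 lower for Bupropion (3 and 1 with TMM), 3 and 1 for Desipramine (0 and 2), and 4 and 0 for Maltodextrin (3 and 2). For the list of cyclic AMP pathway genes it was 5 and 13 for FT, 7 and 14 for Bupropion, 10 and 5 for Desipramine and 16 and 7 for Maltodextrin, and the signs of Adcy2, Pde2a, Ppp3cb and Prkaca turned in 1 comparison each. For the other striatal genes it was 6 and 12 for FT, 12 and 7 for Bupropion and 11 and 1 for Desipramine.

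Adora2a was measured at 104, 112, 108, 109 and 111 CPM in FT libraries, 144, 135, 146, 145 and 149 CPM in Bupropion libraries, 110, 106, 115, 124 and 122 CPM in Desipramine libraries, and 125, 137, 131, 136 and 126 CPM in Control libraries of NACShell. All FT and Desipramine libraries lay under all Control libraries, and Bupropion libraries overlapped them. The receptor gene fell by 0.39 ± 0.055 on the log2 scale with FT (edgeR adjusted p = 3.17e-07) and by 0.36 ± 0.056 with Desipramine (edgeR adjusted p = 3.28e-06). With library totals the Desipramine change was -0.17 (edgeR adjusted p = 0.00534). With Bupropion it was at 0.06 ± 0.053 and was not called (edgeR adjusted p = 0.404), and with library totals it was 0.13 and called. Probiotics libraries had 174, 155, 159, 155 and 157 CPM against 124, 126, 137, 126 and 131 CPM in Maltodextrin libraries, with no overlap and replicate 1 highest. That difference was 0.33 ± 0.055 (edgeR adjusted p = 7.52e-06). Maltodextrin against Control was -0.21 ± 0.055 (edgeR adjusted p = 0.00219) although the CPM of the groups overlapped, and with library totals it was -0.02 and was not called.

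Gng7, the G protein gamma subunit, had 301, 388, 389, 429 and 381 CPM in FT, 530, 546, 526, 524 and 536 CPM in Bupropion, 376, 435, 414, 472 and 444 CPM in Desipramine, and 399, 345, 371, 372 and 375 CPM in Control. Only the Bupropion libraries stood clear of Control, all above it. The change was 0.44 ± 0.065 with Bupropion (edgeR adjusted p = 8.96e-07), and -0.10 ± 0.065 with FT and 0.03 ± 0.066 with Desipramine were not called. With library totals the Desipramine value was 0.22 and called. Probiotics libraries had 731, 703, 701, 687 and 701 CPM, against 403, 392, 394, 397 and 422 CPM in Maltodextrin. The groups lay far apart, with little spread inside either. The change was 0.83 ± 0.066 (edgeR adjusted p = 1.37e-12), and Maltodextrin against Control was -0.08 ± 0.065 (edgeR adjusted p = 0.364).

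Adcy5, the main adenylyl cyclase of striatum, had 144, 220, 232, 227 and 200 CPM in FT, 237, 246, 234, 225 and 243 CPM in Bupropion, 186, 225, 208, 251 and 226 CPM in Desipramine, and 213, 214, 214, 217 and 204 CPM in Control. FT and Desipramine spread on both sides of Control, and Bupropion lay just above it. None was called: the changes were -0.17 ± 0.075, 0.08 ± 0.074 and -0.12 ± 0.076 (edgeR adjusted p = 0.0585, 0.387 and 0.236). The FT value passed the threshold with RLE size factors, with DESeq2 and without FT replicate 2, 3 or 4, at adjusted p between 0.0318 and 0.0427, and with the replicate number as a block at 0.0497. Probiotics libraries had 333, 337, 329, 343 and 311 CPM and Maltodextrin libraries 331, 341, 299, 314 and 313 CPM, which overlapped (0.07 ± 0.074, edgeR adjusted p = 0.470). Both of these groups lay above all Control libraries, and Maltodextrin against Control was 0.40 ± 0.074 (edgeR adjusted p = 3.32e-05).

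Ppp1r1b, which encodes DARPP-32, had 409, 438, 449, 402 and 499 CPM in FT, 509, 639, 608, 512 and 712 CPM in Bupropion, 630, 633, 623, 600 and 642 CPM in Desipramine, and 631, 622, 599, 633 and 635 CPM in Control. FT libraries all lay under Control, Bupropion libraries spread around it, and Desipramine libraries matched it in CPM. FT gave a change of -0.63 ± 0.10 (edgeR adjusted p = 6.57e-06), against -0.15 ± 0.10 with Bupropion and -0.18 ± 0.11 with Desipramine, which were not called. In Probiotics the gene had 683, 791, 794, 594 and 1076 CPM, against 585, 584, 617, 590 and 625 CPM in Maltodextrin. One Probiotics library lay within the Maltodextrin range and 1 was far above all others. The change was 0.42 ± 0.10 (edgeR adjusted p = 0.00144), and without that library, replicate 5, it was 0.26 (edgeR adjusted p = 0.0150). Maltodextrin against Control was -0.24 ± 0.10 (edgeR adjusted p = 0.0567). It was called there with the replicate number as a block (edgeR adjusted p = 0.0130), with no filter on low counts (0.0447) and with only the groups compared in the fit (7e-06), and with Desipramine under the last of these (0.000433).

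Pde10a, the phosphodiesterase, had 274, 276, 306, 311 and 255 CPM in FT, 289, 334, 314, 292 and 307 CPM in Bupropion, 271, 295, 291, 298 and 304 CPM in Desipramine, and 302, 325, 317, 315 and 311 CPM in Control. All these groups overlapped in CPM, with FT and Desipramine tending lower. In the TMM fits the changes were -0.27 ± 0.047 with FT (edgeR adjusted p = 1.32e-05), -0.28 ± 0.048 with Desipramine (edgeR adjusted p = 1.20e-05) and -0.11 ± 0.046 with Bupropion (edgeR adjusted p = 0.0476). The Bupropion call was lost when any of 8 of the 10 libraries was left out (values of -0.09 to -0.12, edgeR adjusted p up to 0.137), and with library totals it was -0.03. The Desipramine call was lost with library totals, at -0.10 (edgeR adjusted p = 0.121), and Pde10a with FT was then at -0.14 (edgeR adjusted p = 0.0184). Maltodextrin libraries had 486, 521, 500, 485 and 509 CPM, all above all Control libraries, a change of 0.49 ± 0.047 (edgeR adjusted p = 1.84e-10). Probiotics libraries, at 470, 486, 484, 478 and 465 CPM, overlapped Maltodextrin (-0.05 ± 0.046, edgeR adjusted p = 0.441).

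Rgs9, the regulator of G protein signalling, had 237, 246, 256, 240 and 240 CPM in Maltodextrin against 159, 170, 160, 176 and 164 CPM in Control. Every Maltodextrin library was above every Control library, and the change was 0.37 ± 0.062 (edgeR adjusted p = 7.95e-06). Probiotics libraries, at 254, 236, 245, 242 and 226 CPM, overlapped Maltodextrin, with a fitted difference of 0.00 ± 0.062 (edgeR adjusted p = 0.992). In the drug groups the gene ran from 139 to 199 CPM in FT, 156 to 172 CPM in Bupropion and 169 to 180 CPM in Desipramine. These overlapped Control, and no change was called (0.01, -0.07 and -0.11), except with Desipramine when only the groups compared were fitted (-0.12, edgeR adjusted p = 0.0292).

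Rxrg, the nuclear receptor, had 68.2, 69.4, 68.7, 69.7 and 72.4 CPM in Bupropion against 43.4, 39.5, 39.6, 44.1 and 40.5 CPM in Control. The groups were far apart, a change of 0.67 ± 0.067 (edgeR adjusted p = 2.47e-10). FT libraries had 37.1 to 49.3 CPM and Desipramine libraries 35.0 to 52.0 CPM, both overlapping Control (0.01 ± 0.071 and 0.06 ± 0.073, not called). With library totals the Desipramine value was 0.24 and called. Probiotics libraries had 64.1, 65.7, 57.7, 62.5 and 65.7 CPM against 44.3, 50, 51.3, 50.3 and 45.0 CPM in Maltodextrin. They did not overlap, and the change was 0.41 ± 0.071 (edgeR adjusted p = 1.71e-05). Maltodextrin lay just above Control in CPM but its fitted change was 0.04 ± 0.072, and with library totals it was 0.22 and called.

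Syndig1l had 59.0, 64.7, 64.8, 77.7 and 73.3 CPM in FT, 60.3, 68.0, 74.2, 68.3 and 67.7 CPM in Bupropion, 47.3, 44.5, 45.1, 48.9 and 50.7 CPM in Desipramine, and 36.3, 35.3, 39.1, 37.1 and 37.9 CPM in Control. Every library of the 3 drug groups lay above every Control library. The changes were 0.76 ± 0.077 with FT (edgeR adjusted p = 5.63e-10) and 0.79 ± 0.075 with Bupropion (edgeR adjusted p = 1.07e-10). With Desipramine it was 0.16 ± 0.083 (edgeR adjusted p = 0.116), and it was called with library totals (0.35) and with only the groups compared in the fit (0.16, edgeR adjusted p = 0.0423). Probiotics libraries had 71.6, 74.2, 76.4, 81.4 and 78.3 CPM against 24.5, 33.6, 36.4, 34.7 and 35.6 CPM in Maltodextrin. The groups did not overlap, and the change of 1.22 ± 0.081 was the largest of the 40 in NACShell (edgeR adjusted p = 3.17e-14). Maltodextrin against Control was -0.34 ± 0.085 (edgeR adjusted p = 0.00111), with replicate 1 the lowest library, and with library totals it was -0.16 and not called.

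Syndig1l also changed outside NACShell. Of the 10 regions, NACShell included, it rose in 7 and fell in 1 with FT (53.4% of all gene tests called over the 10 regions), rose in 9 with Bupropion (46.3%), rose in 4 and fell in 1 with Desipramine (54.3%) and, for Probiotics against Maltodextrin, rose in 6 (42.8%). The FT counts include the rise in ILC and the fall in LConly, whose FT libraries go against their labels and from which no direction of FT is drawn. The Bupropion and Desipramine counts each include a rise in ILC (1.74 ± 0.31 and 1.15 ± 0.36), measured against the Control ILC libraries that were low in Slc17a7. Excitatory neuron markers there summed to 610 to 677 CPM in Bupropion, 597 to 668 CPM in Desipramine and 305 to 325 CPM in Control, so no direction of either drug is drawn from ILC. Rises in BLA, dorDG, LConly and venDG are also in the Bupropion count. Marker lists that did not overlap between Bupropion and Control there were 9, 6, 7 and 9 of 12, and their part was not tested. In Raphe Syndig1l had 5.26, 6.34, 7.50, 6.09 and 7.08 CPM in FT, 7.31, 4.26, 6.66, 6.07 and 4.20 CPM in Bupropion, and 1.29, 1.60, 2.32, 1.82 and 1.85 CPM in Control. All drug libraries lay above all Control libraries, with changes of 1.54 ± 0.20 (edgeR adjusted p = 6.37e-08) and 1.51 ± 0.19 (edgeR adjusted p = 1.39e-07). Probiotics libraries had 6.12, 6.80, 4.20, 7.32 and 4.83 CPM against 2.29, 2.05, 1.22, 1.79 and 2.32 CPM in Maltodextrin, a change of 1.43 ± 0.20 (edgeR adjusted p = 6.23e-07). At these levels a library holds few reads of the gene. Other called changes were 1.64 ± 0.27 with Bupropion in CGC (3.25 ± 0.518 CPM against 1.15 ± 0.5 CPM in Control), 1.08 ± 0.24 with FT in PLC (2.59 ± 1.11 CPM against 1.15 ± 0.295 CPM), 0.74 ± 0.24 with Bupropion in PLC and 1.03 ± 0.27 with Probiotics in PLC. In mPOA, where the gene was at 10.4 CPM in Control, the changes with FT, Bupropion and Probiotics were 0.22, 0.25 and 0.27 and were not called. In Raphe, Drd1 was at 4.45 CPM in FT, 1.58 CPM in Bupropion and 2.53 CPM in Control, and Penk at 117 CPM in FT, 124 CPM in Bupropion and 101 CPM in Control. As a share of NACShell of the same treatment, the 10 striatal markers there summed to 13.3% in FT, 10.7% in Bupropion and 8.34% in Control. The share was 8.79% in Probiotics and 9.32% in Maltodextrin. In Raphe 11 of 12 marker lists did not overlap between FT and Control, 9 of 12 between Bupropion and Control and 6 of 12 between Probiotics and Maltodextrin. With FT, oligodendrocyte markers summed to 54245 to 75845 CPM, against 112219 to 126934 CPM in Control. Their part in the change of Syndig1l was not tested.

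**Figure D4:**
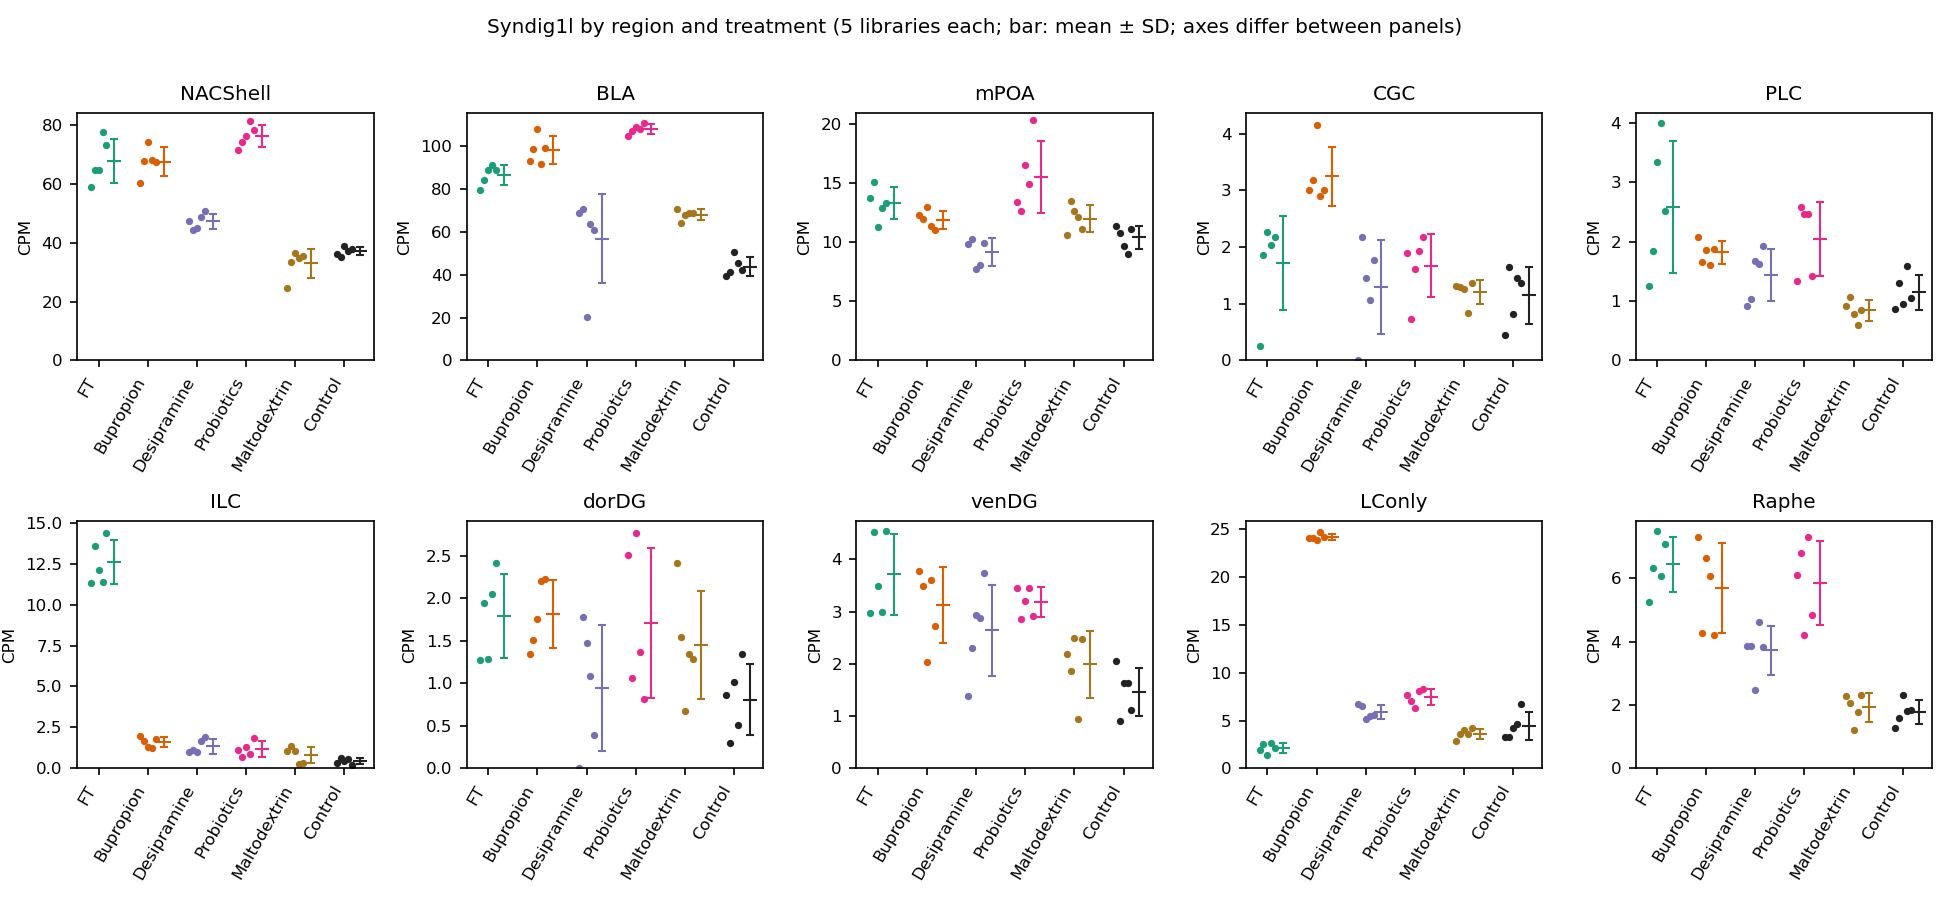
Syndig1l CPM by region and treatment, with dots for libraries and bars for mean ± SD (n = 5); the axes differ between panels and start at 0. FT, Bupropion and Probiotics lie above Control and Maltodextrin on average in NACShell, BLA and Raphe, and single groups stand far above the rest in ILC (FT) and LConly (Bupropion).

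In CGC, mPOA, PLC and Raphe, the 8 genes moved in both directions. With FT 7 of the 32 pairs of gene and region rose and 6 fell, where 49.0% of all gene tests in these regions were called. Adora2a in mPOA fell by 1.19 ± 0.12 (5.26 ± 0.662 CPM in FT, 10.8 ± 1.02 CPM in Control, edgeR adjusted p = 1.27e-09), and Gng7 there fell by 1.13 ± 0.083 (28.2 ± 4.32 CPM in FT, 57.3 ± 4.98 CPM in Control). In the same mPOA libraries cholinergic markers summed to 22.9 to 49.1 CPM in FT and 129 to 160 CPM in Control, vessel markers to 126 to 141 CPM in FT and 275 to 318 CPM in Control, and oligodendrocyte markers to 20240 to 31895 CPM in FT and 48535 to 59986 CPM in Control, none at 0. Striatal markers overlapped there, and 5 of 12 lists did not. The part of these in the falls of Adora2a and Gng7 was not tested. Gng7 in PLC fell by 0.42 ± 0.064, where 4 of 12 marker lists did not overlap between FT and Control, among them oligodendrocyte markers at 3743 to 5232 CPM in FT and 6231 to 6835 CPM in Control, and their part was not tested. Rgs9 in Raphe rose by 0.59 ± 0.11 (0.94 with library totals). Bupropion gave 12 that rose and 4 that fell (45.4% called over all genes), with Gng7 at -0.65 ± 0.079 in mPOA and -0.49 ± 0.063 in PLC and Adora2a at -0.63 ± 0.11 in mPOA. In mPOA 8 of 12 marker lists did not overlap, among them cholinergic markers (66.9 to 88.8 CPM in Bupropion, 129 to 160 CPM in Control) and vessel markers (138 to 150 CPM in Bupropion, 275 to 318 CPM in Control), and their part was not tested. In PLC 3 of 12 did not, with excitatory neuron markers at 616 to 660 CPM in Bupropion and 832 to 882 CPM in Control, and their part was not tested either. So Gng7, higher with Bupropion in NACShell, was lower in mPOA and PLC of the same treatment.

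Desipramine gave 8 that rose and 11 that fell (60.5% called over all genes). The calls split by region. In Raphe 7 of the 8 genes rose, where 59.9% of all genes were called and 28.8% were higher. In mPOA 6 fell, where 64.6% of all genes were called and 32.5% were lower. In Raphe, Ppp1r1b had 35.2, 34.4, 42.8, 36.5 and 33.8 CPM in Desipramine against 12.4, 10.8, 13.2, 13.3 and 12.5 CPM in Control. All Desipramine libraries were above all Control libraries, and the change was 1.28 ± 0.084 (edgeR adjusted p = 2.70e-14). Adora2a (6.66 ± 1.22 CPM in Desipramine, 2.51 ± 0.581 CPM in Control) changed by 1.13 ± 0.18 and Rgs9 (12.4 ± 1.17 CPM and 4.84 ± 0.717 CPM) by 1.08 ± 0.10. The striatal markers moved with them: Drd1 was at 11.4 CPM in Desipramine and 2.53 CPM in Control, Gpr6 at 3.92 and 0.878 CPM, and the 10 markers summed to 375 to 408 CPM in Desipramine and 245 to 267 CPM in Control, none at 0. Cholinergic markers summed to 32.9 to 37.5 CPM in Desipramine and 11.3 to 13.6 CPM in Control, and oligodendrocyte markers to 53761 to 65574 CPM in Desipramine and 112219 to 126934 CPM in Control, and 8 of 12 lists did not overlap. Their part in the change was not tested. In mPOA, Gng7 fell by 1.17 ± 0.083 and Adora2a by 1.00 ± 0.12. Oligodendrocyte markers there summed to 24786 to 31150 CPM in Desipramine and 48535 to 59986 CPM in Control, and vessel markers to 117 to 143 CPM in Desipramine and 275 to 318 CPM in Control, again with 8 of 12 lists not overlapping and their part not tested. In PLC, Gng7 fell by 0.69 ± 0.064. There 9 of 12 lists did not overlap, 5 higher and 4 lower in Desipramine, with excitatory neuron markers at 715 to 749 CPM in Desipramine and 832 to 882 CPM in Control, and their part was not tested.

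Probiotics against Maltodextrin gave 14 that rose and 4 that fell (38.9% called over all genes), and Maltodextrin against Control 5 that rose and 10 that fell (41.6%). The Maltodextrin group of mPOA took part in both. Adora2a there had 7, 8, 8.16, 8.07 and 5.68 CPM in Probiotics, 16.6, 17.2, 18.2, 18.0 and 17.9 CPM in Maltodextrin, and 9.28, 10.7, 11.6, 11.9 and 10.7 CPM in Control. Maltodextrin libraries lay above both other groups. The changes were 0.59 ± 0.10 for Maltodextrin against Control (edgeR adjusted p = 3.17e-05) and -1.34 ± 0.11 for Probiotics against Maltodextrin (edgeR adjusted p = 2.05e-11). Ppp1r1b (0.73 ± 0.10) and Pde10a (0.51 ± 0.069) also rose with Maltodextrin in mPOA. Drd1 in mPOA was at 22.6 CPM in Probiotics, 53.5 CPM in Maltodextrin and 23.2 CPM in Control, and the 10 striatal markers summed to 420 to 446 CPM in Probiotics, 562 to 612 CPM in Maltodextrin and 416 to 469 CPM in Control, none at 0. Preoptic and hypothalamic markers summed to 1114 to 2169 CPM in Probiotics, 442 to 702 CPM in Maltodextrin and 1094 to 1464 CPM in Control. In mPOA 9 of 12 lists did not overlap between Probiotics and Maltodextrin and 7 of 12 between Maltodextrin and Control. Their part was not tested. In PLC, Gng7 had 22.1, 22.1, 23.1, 21.8 and 20.7 CPM in Maltodextrin against 54.6, 48.3, 56.3, 51.1 and 47.9 CPM in Control. The groups were far apart, and the gene fell by 1.16 ± 0.066 (edgeR adjusted p = 1.26e-15). It was at 43.6 ± 1.67 CPM in Probiotics, 0.78 ± 0.068 above Maltodextrin. Excitatory neuron markers in PLC summed to 759 to 827 CPM in Probiotics, 622 to 688 CPM in Maltodextrin and 832 to 882 CPM in Control. There 7 of 12 lists did not overlap between Probiotics and Maltodextrin and 9 of 12 between Maltodextrin and Control, and their part was not tested. In mPOA, Probiotics against Maltodextrin was -0.79 ± 0.10 for Ppp1r1b and -0.44 ± 0.078 for Gng7. Maltodextrin against Control was -0.64 ± 0.17 for Rxrg in CGC and -0.63 ± 0.11 for Gng7 in Raphe.

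The number of the 8 genes that rose and that fell differed by region as well as by comparison. The percentages beside them count all genes called in either direction. With FT, the counts were 1 and 2 in CGC (where 43.0% of all genes were called), 1 and 3 in mPOA (48.8%), 1 and 1 in PLC (42.7%) and 4 and 0 in Raphe (61.2%). In the 5 regions given apart, the same comparison gave 1 and 7 in BLA (where 54.7% of all genes were called), 3 and 0 in dorDG (29.4%), 4 and 3 in ILC (81.0%), 6 and 1 in LConly (74.0%) and 3 and 0 in venDG (50.7%). With Bupropion, the counts were 5 and 0 in CGC (where 51.6% of all genes were called), 1 and 3 in mPOA (39.3%), 3 and 1 in PLC (47.1%) and 3 and 0 in Raphe (43.6%). In the 5 regions given apart, Bupropion gave 6 and 0 in BLA (where 50% of all genes were called), 4 and 0 in dorDG (15.0%), 7 and 0 in ILC (71.2%), 8 and 0 in LConly (58.8%) and 6 and 1 in venDG (37.5%). With Desipramine, the counts were 1 and 3 in CGC (where 57.6% of all genes were called), 0 and 6 in mPOA (64.6%), 0 and 2 in PLC (59.7%) and 7 and 0 in Raphe (59.9%). In the 5 regions given apart, Desipramine gave 1 and 4 in BLA (where 43.9% of all genes were called), 1 and 0 in dorDG (33.1%), 6 and 1 in ILC (71.6%), 5 and 0 in LConly (54.4%) and 5 and 0 in venDG (56.9%). For Probiotics against Maltodextrin, the counts were 2 and 0 in CGC (where 32.1% of all genes were called), 1 and 4 in mPOA (35.0%), 6 and 0 in PLC (47.0%) and 5 and 0 in Raphe (41.2%). In the 5 regions given apart, Probiotics gave 2 and 0 in BLA (where 22.9% of all genes were called), 2 and 3 in dorDG (68.7%), 5 and 0 in ILC (50.7%), 4 and 0 in LConly (41.9%) and 6 and 0 in venDG (52.8%). For Maltodextrin against Control, the counts were 1 and 2 in CGC (where 46.3% of all genes were called), 4 and 1 in mPOA (37.9%), 0 and 5 in PLC (49.1%) and 0 and 2 in Raphe (33.3%). In the 5 regions given apart, Maltodextrin gave 4 and 0 in BLA (where 28.7% of all genes were called), 0 and 0 in dorDG (0.939%), 2 and 1 in ILC (68.1%), 3 and 3 in LConly (45.7%) and 0 and 1 in venDG (22.6%).

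With library totals no called change in these 4 regions turned its sign, but the split was 11 higher and 4 lower for FT (7 and 6 with TMM), 11 and 6 for Desipramine (8 and 11) and 8 and 9 for Maltodextrin (5 and 10). In CGC the calls of Ppp1r1b (0.16, edgeR adjusted p = 0.0498) and Adora2a (-0.42, edgeR adjusted p = 0.0486) with Desipramine were lost without the shallow library (0.0725 and 0.0662).

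**Figure D5:**
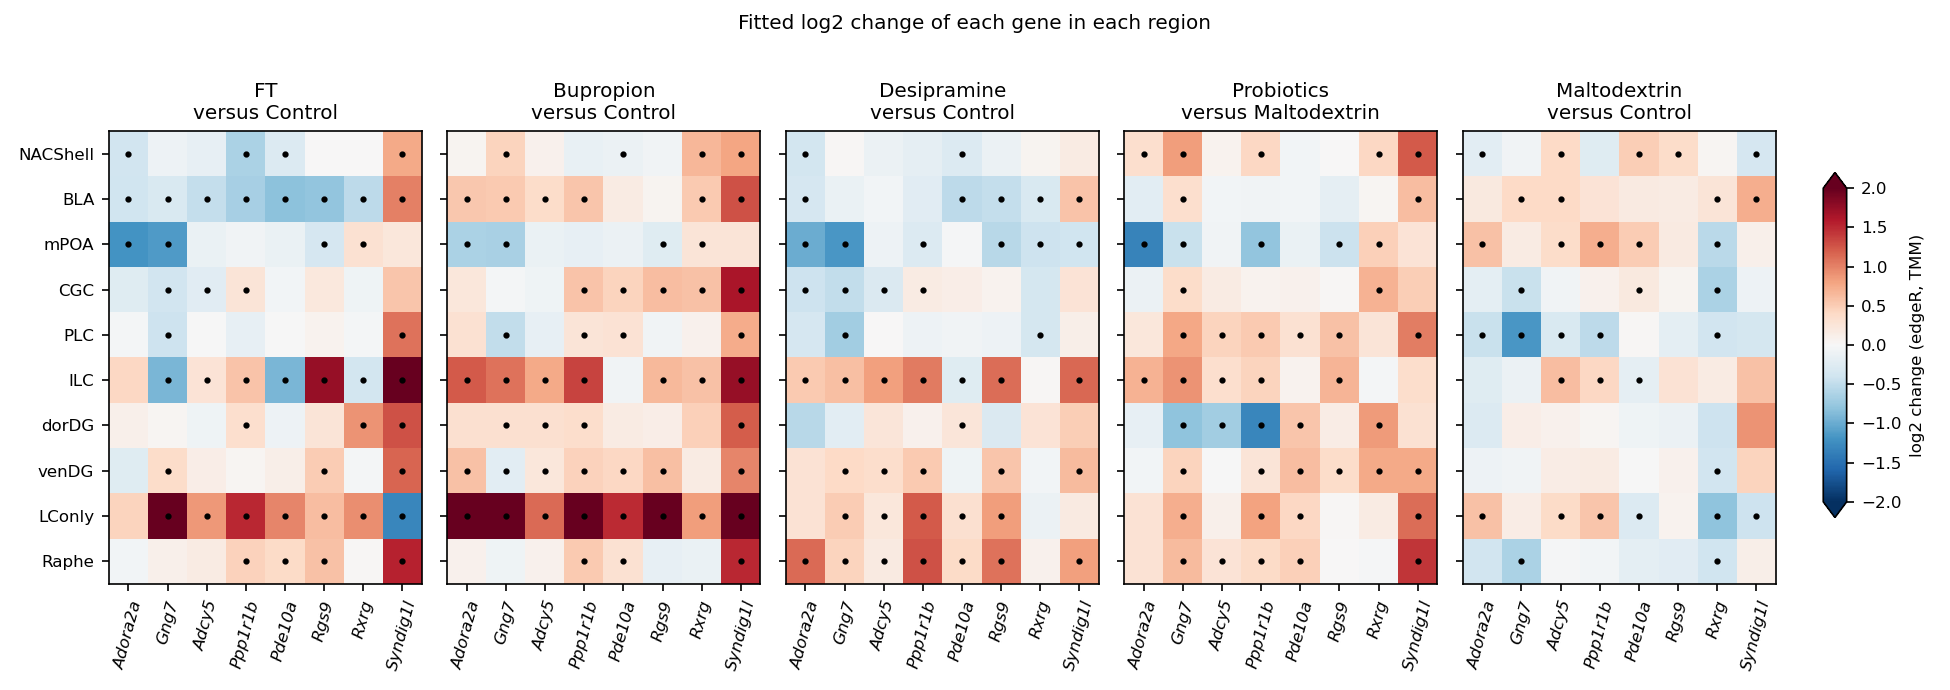
Fitted log2 change of each gene (columns) in each region (rows) for the 5 comparisons, red for higher and blue for lower in the group named first, with black dots where the edgeR adjusted p was under 0.05; the colour scale ends at -2 and 2. Raphe in the Desipramine panel and LConly in the Bupropion panel are red for nearly all genes, and mPOA is blue for Adora2a and Gng7 in the 3 drug panels.

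In the 5 regions given apart, several groups that departed in these genes also departed in markers. In LConly all 8 genes rose with Bupropion, where 58.8% of all genes were called and 27.8% were higher. Syndig1l had 24.1, 24.1, 23.9, 24.7 and 24.2 CPM in Bupropion LConly against 3.25, 3.23, 4.22, 4.67 and 6.76 CPM in Control LConly. Adora2a had 21.4, 22.4, 22.5, 20.6 and 19.6 CPM against 2.16, 1.18, 2.65, 2.71 and 2.5 CPM, and Rgs9 had 31.8, 32.6, 28.8, 30.2 and 30.3 CPM against 4.08, 4.25, 5.63, 5.21 and 5.19 CPM. The 5 Bupropion libraries lay close together in all 3 genes and were far above Control. The changes were 2.47, 3.26 and 2.66. Gpr6 was at 5.65 CPM in Bupropion and 0.271 CPM in Control, and Drd1 at 12.5 and 3.96 CPM. The 10 striatal markers summed to 644 to 680 CPM in Bupropion and 544 to 568 CPM in Control, none at 0. Gpr6, Drd1 and the sum were thus higher in Bupropion. Dbh was at 211 CPM in Bupropion LConly and 140 CPM in Control LConly. Oligodendrocyte markers summed to 74681 to 93963 CPM in Bupropion LConly and 36812 to 53845 CPM in Control LConly, and 7 of 12 lists did not overlap. The part of striatal tissue was not tested.

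With FT, the libraries labelled ILC and LConly are those whose markers go against the label. Syndig1l stood at 11.3, 13.6, 12.1, 11.4 and 14.4 CPM in the libraries labelled FT ILC, against 0.338, 0.654, 0.455, 0.543 and 0.198 CPM in Control ILC, while Gng7 stood at 48.6 ± 9.67 CPM in those labelled FT LConly against 7.69 ± 0.518 CPM in Control LConly. Both differences set tissue with unlike markers side by side, so no direction of FT is drawn from them. Over the 5 regions, FT gave 28 calls of 40, where 58.1% of all gene tests were called. The other counts of 40 were 32 with Bupropion (46.8% over all genes), 23 with Desipramine (51.9%), 22 with Probiotics against Maltodextrin (46.8%) and 14 with Maltodextrin against Control (33.4%). Over BLA, dorDG and venDG alone the calls of 24 pairs were 14 with FT (45.3% of all gene tests called in these 3 regions), 17 with Bupropion (34.8%), 11 with Desipramine (44.7%), 13 with Probiotics against Maltodextrin (47.2%) and 5 with Maltodextrin against Control (17.8%). With library totals the sign turned for Rxrg with FT, and for Pde10a with Desipramine and with Maltodextrin, all in ILC.

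In BLA, whose libraries resemble NACShell in these genes, 7 of the 8 fell with FT and Syndig1l rose. Of all genes 54.7% were called there, 21.7% higher and 33.0% lower. Ppp1r1b there changed by -0.67, Adora2a by -0.40 and Pde10a by -0.82, and Syndig1l by 1.00, the directions these 4 had in NACShell. Rgs9 changed by -0.79 in BLA and by 0.01 in NACShell, and the difference between the regions was not tested. The FT BLA libraries differed from Control BLA in 10 of 12 marker lists. Striatal markers summed to 2406 to 3025 CPM in FT and 3895 to 4354 CPM in Control, oligodendrocyte markers to 73739 to 104919 CPM in FT and 18683 to 22384 CPM in Control, choroid plexus markers to 6425 to 8728 CPM in FT and 23.5 to 50.5 CPM in Control, and excitatory neuron markers to 148 to 162 CPM in FT and 357 to 403 CPM in Control, none at 0. Their part in the changes was not tested. With Bupropion 6 of 8 rose in BLA (50% of all genes called, 22.9% higher), with Syndig1l at 1.28, Rxrg at 0.52 and Gng7 at 0.53. Striatal markers summed to 4527 to 4992 CPM in Bupropion BLA and 3895 to 4354 CPM in Control BLA, and 9 of 12 lists did not overlap. In Desipramine BLA, replicate 3 was low for all 8 genes: Rgs9 had 225, 224, 20.2, 234 and 229 CPM, and Ppp1r1b 574, 598, 80.7, 510 and 561 CPM. Its striatal markers summed to 404 CPM, the lowest of the group, whose highest was 3888 CPM. With it, 1 gene rose and 4 fell against Control, and without it the counts were the same, with Pde10a at -0.52 with it and -0.39 without it and Rgs9 at -0.48 and -0.38 (edgeR adjusted p = 2.05e-07 and 3.54e-06 without it). In dorDG, Maltodextrin against Control gave 0 of 8 calls by edgeR and by DESeq2 and 1 at an unadjusted p under 0.05, and 0.939% of all genes were called there. Probiotics libraries labelled dorDG, which stood apart in markers, had 15.9 CPM of Ppp1r1b against 41.8 CPM in Maltodextrin dorDG.

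Whether a change in NACShell differed from the mean change in CGC, mPOA, PLC and Raphe was tested in 1 fit of 150 libraries. With FT, the change of Ppp1r1b in NACShell minus that mean was -0.78 ± 0.096 (edgeR adjusted p = 1.34e-11), and 3 of 8 genes differed, where 37.0% of all genes did. With Bupropion 4 of 8 differed (43.6%), led by Gng7 at 0.75 ± 0.081 (edgeR adjusted p = 3.10e-14). The counts were 5 of 8 with Desipramine (33.1%), 4 with Probiotics against Maltodextrin (16.4%), led by Adora2a at 0.56 ± 0.11 (edgeR adjusted p = 5.29e-05), and 6 with Maltodextrin against Control (33.9%). Where a replicate of a treatment was left out of this fit, its libraries were left out in all these regions at once. For Ppp1r1b with Probiotics the difference was 0.36 ± 0.095, and without Probiotics replicate 5 it was 0.18 and not called (edgeR adjusted p = 0.184). The Desipramine count was 3 without Desipramine replicate 2. Among the Desipramine differences, that of Rgs9 (-0.23) was not called without Control replicate 2 or 4 or Desipramine replicate 1, 2 or 3 (-0.18 to -0.23, edgeR adjusted p between 0.05 and 0.112), and that of Rxrg (0.31) was not called without Desipramine replicate 2 or 4 (0.28 in both, edgeR adjusted p = 0.0586 and 0.0617). With library totals the Ppp1r1b difference was 0.25 for Probiotics (edgeR adjusted p = 0.0532) and -0.19 for Maltodextrin (edgeR adjusted p = 0.122), neither called. Syndig1l was called in none of the 5, with differences between -0.32 and 0.41, and edgeR adjusted p between 0.0828 and 0.885.

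Over the 60 group means of log2(CPM + 0.5), 1 non-member gene is given for each member, the one whose pattern was most like it. Pearson's r across the 60 groups was 0.985 between Adora2a and Tbc1d10c, 0.967 between Adcy5 and Gpr6, 0.960 between Rgs9 and Gpr6, 0.951 between Ppp1r1b and Gpr6, and 0.952 between Pde10a and Crip3. It was 0.964 between Syndig1l and Penk, the enkephalin precursor, 0.919 between Gng7 and the phosphodiesterase Pde7b, and 0.912 between Rxrg and Tpd52l1. The points share libraries and depth and are dominated by the 12 groups of NACShell and BLA, so these are descriptions. Without those groups, over 48 groups, r was 0.854 for Adora2a and Tbc1d10c, 0.884 for Syndig1l and Penk, and 0.572 for Ppp1r1b and Gpr6. Among the 28 pairs of members r ran from 0.616 to 0.966 with a median of 0.850 over 60 groups, and from -0.367 to 0.800 with a median of 0.401 over 48. Within groups, the median coefficient of variation lay between 6.99% for Pde10a and 21.0% for Syndig1l.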

How the data were processed

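The deposited table holds whole-number read counts per gene for 300 libraries of stranded total RNA, as the authors made them. STAR, HTSeq, FastQC and the rat build rn6 are named, per the submitters' processing notes, with versions not given in the sources used here. Per the labels, tissue punches were pooled before extraction. No further normalisation of the counts is stated. CPM were computed from library totals. For each region, 30 libraries were fitted with edgeR 4.0.16 (quasi-likelihood, TMM, filterByExpr, R 4.3.3, limma 3.58.1), all treatments sharing 1 estimate of spread. Control libraries were fitted over all regions, and 150 libraries for differences between regions. Adjustment followed Benjamini-Hochberg across every gene tested, and called means an adjusted p under 0.05. The fits were tested on simulated data: of 66 genes changed by a fold of 2.0 in a simulated FT against Control comparison in NACShell over 11969 genes, 84.8% were recovered, against 67.2% of 67 genes at a fold of 1.5 and 19.4% of 67 at a fold of 1.2. No other genes were changed in that simulation, whereas 46.7% of the 12116 genes tested were called in the data. Recovery in the data may therefore differ. DESeq2 1.42.0 and other settings served as alternatives.

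The 8 genes, the gene lists and the marker lists were chosen with earlier results of these data known. Named genes were all 8 in NACShell, and elsewhere the 3 most positive and 3 most negative called changes in CGC, mPOA, PLC and Raphe, groups over 3 times the median of the 6 treatment means in the other regions, the 2 highest and 2 lowest called genes of each list, and the 3 genes most alike in pattern. Of the genes alike in pattern, the closest is printed for each of the 8. The further changes given for whole regions were chosen after their values were seen. Promoters came from RefSeq (GRCr8) and no coordinates of rn6 are given.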

Additional observations from a re-analysis of the deposited data

Results flagged for a closer look

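In 480 groups of 5 libraries, 31 held a library whose gap to its nearest neighbour was over 0.71 of the group's range (Dixon's critical value), where chance gives about 1 in 20, or 24. Of these, 8 belong to Desipramine BLA replicate 3, the shallowest library, which was lowest for all genes: Ppp1r1b at 80.7 CPM, Rgs9 at 20.2 CPM, Adora2a at 15.1 CPM, Rxrg at 5.04 CPM, Pde10a at 35.3 CPM, Adcy5 at 50.4 CPM, Gng7 at 40.4 CPM and Syndig1l at 20.2 CPM. Its striatal markers were the lowest of the group too, and their part was not tested.

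The other single libraries that stood low were Ppp1r1b in FT dorDG replicate 2 (41.4 CPM) and Maltodextrin dorDG replicate 2 (37.8 CPM), Rxrg in Control BLA replicate 3 (58.8 CPM) and Control mPOA replicate 1 (24.7 CPM), and Pde10a in Maltodextrin Raphe replicate 5 (10.5 CPM) and Maltodextrin venDG replicate 5 (28.1 CPM). So did Adcy5 in Bupropion mPOA replicate 3 (38.9 CPM), Control LConly replicate 1 (20.8 CPM) and Control NACShell replicate 5 (204 CPM), and Gng7 in FT LConly replicate 1 (31.7 CPM) and Control CGC replicate 2 (52.3 CPM). Syndig1l was low in FT CGC replicate 1 (0.255 CPM), Maltodextrin CGC replicate 4 (0.842 CPM) and Maltodextrin NACShell replicate 1 (24.5 CPM). Those that stood high were Ppp1r1b in Control LConly replicate 5 (18.8 CPM), Adora2a in Probiotics NACShell replicate 1 (174 CPM) and Probiotics venDG replicate 1 (2.95 CPM), and Rxrg in Bupropion Raphe replicate 2 (6.69 CPM) and Desipramine ILC replicate 5 (17.2 CPM). Pde10a in FT CGC replicate 4 (60.2 CPM), Adcy5 in Bupropion venDG replicate 1 (43.5 CPM) and Maltodextrin LConly replicate 1 (40.8 CPM), and Syndig1l in Bupropion CGC replicate 3 (4.16 CPM) were high as well.

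In 22 of 40 tests, a gene's log2 change in NACShell differed from its mean change in CGC, mPOA, PLC and Raphe, and the values are NACShell minus that mean. Of all genes, 37.0% differed in this way with FT, 43.6% with Bupropion, 33.1% with Desipramine, 16.4% for Probiotics against Maltodextrin and 33.9% for Maltodextrin against Control. With FT they were -0.78 for Ppp1r1b, -0.34 for Pde10a and 0.33 for Gng7. With Bupropion they were -0.44 for Ppp1r1b, 0.47 for Rxrg, -0.34 for Pde10a and 0.75 for Gng7. With Desipramine they were -0.45 for Ppp1r1b, -0.23 for Rgs9, 0.31 for Rxrg, -0.39 for Pde10a and 0.51 for Gng7. For Probiotics against Maltodextrin they were 0.36 for Ppp1r1b, 0.56 for Adora2a, -0.24 for Pde10a and 0.49 for Gng7. For Maltodextrin against Control they were -0.32 for Ppp1r1b, 0.40 for Rgs9, 0.50 for Rxrg, 0.33 for Pde10a, 0.39 for Adcy5 and 0.42 for Gng7.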

How the results depend on the processing

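Of 1736 values of 110 single-gene results under the alternatives, 1694 kept their direction and side of the threshold or were uncalled in both, 23 were no longer called and 19 became called. Among these 110 results no called value turned its sign, and 41 values that were called under neither setting did, 9 of them with library totals, a setting chosen after seeing the data. Outside them, that setting turned the sign of called changes of Rxrg (FT) and Pde10a (Desipramine, Maltodextrin) in ILC and of Adcy2, Pde2a, Ppp3cb and Prkaca in NACShell. The count of the 8 genes called in NACShell with Desipramine was 4 with library totals and 5 with only the groups compared, against 2. Called cyclic AMP pathway genes with FT numbered 18 with library totals, against 29. Without ILC and LConly, which leaves fewer pairs, the Maltodextrin calls in the regions given apart numbered 5, against 14. For differences between NACShell and 4 regions, a replicate number of 1 treatment was left out in all of them at once. The genes whose Desipramine change differed there then numbered 3 to 5. Where no cause is named, the cause was not tested.

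Replicate numbers were not used as a pairing in the main fits. Correlations of same-numbered deviations ran from -0.355 to 0.534 over 45 pairs of regions (mean 0.09) and from -0.384 to 0.456 over 15 pairs of treatments (mean 0.051). The mean was 0.312 for Control mPOA and PLC (-0.084 between unlike numbers) and 0.24 for FT and Control NACShell (-0.051). For Control dorDG and venDG it was -0.102 (0.026). A partial pairing in some groups is therefore not excluded. With the replicate block, 66 of the tests by region were called, as without it, and NACShell counts were 5 with FT (against 4) and 6 with Maltodextrin (against 5).

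Libraries are pooled punches, levels of different genes cannot be compared without lengths, and Syndig1l and Adora2a outside the striatal punches rest on few reads. Several groups do not match their region's markers.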
